A study of Mus musculus with 9 samples.

Results

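CC chemokines of the mouse are encoded to a large part in 2 groups of neighbouring genes on chromosome 11, and 8 of these genes and *Heatr9* were followed in IMQ-treated peritoneal macrophages. The genes were *Ccl2*, *Ccl7* and *Ccl12* (the MCP cluster), *Ccl3*, *Ccl4*, *Ccl5*, *Ccl6* and *Ccl9* (the MIP cluster) and *Heatr9*, which lies beside *Ccl5*. They were chosen by name, and each matched 1 row, so that they made up 9 of the 54059 genes of the deposited table. The macrophages were elicited with starch broth, washed from the peritoneal cavity of mice aged 8 weeks per the labels, and cultured as adherent cells. The wild-type group (3 libraries) was treated with IMQ, an agonist of TLR7, for 4 h. The M-*Shp2*-/- group (3 libraries) was treated likewise and came from mice with a floxed *Shp2* gene and a *Lyz2*-cre transgene, which is active in macrophages, monocytes and granulocytes, and these mice are named SHP2lyz2-/- in the labels. The SHP099 group (3 libraries) was wild-type macrophages that received SHP099, an allosteric inhibitor of the phosphatase SHP2, at 10 µM for 2 h before IMQ. IMQ was thus shared by all 9 libraries, and no library of cells without IMQ was analysed here. The labels give the group and the replicate, and the treatments come from the methods of the study. No source says whether libraries of a group came from separate mice, so that p values measure the spread between these libraries, which may be technical.

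CC chemokines are small secreted proteins that attract leukocytes through G protein-coupled receptors. The monocyte chemoattractant proteins of the MCP cluster act mainly on CCR2 and draw monocytes out of blood and bone marrow, whereas the macrophage inflammatory proteins of the MIP cluster attract monocytes, macrophages, T cells and NK cells, several of them through CCR1. Macrophages transcribe many of these genes within hours of a signal from a Toll-like receptor, largely through NF-*κ*B, AP-1 and interferon-regulated factors.

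The MCP genes lay from 82035571 to 82103400 of chromosome 11 (GRCm38, GENCODE M21) and spanned 67.8 kb. *Ccl7* followed *Ccl2* after 8.26 kb, and *Ccl12* lay 54.3 kb further on. *Heatr9* and the MIP genes lay from 83511736 to 83664683, 1408 kb away from the MCP genes, in the order *Heatr9*, *Ccl5*, *Ccl9*, *Ccl6*, *Ccl3* and *Ccl4*. The closest neighbours were *Heatr9* and *Ccl5* (3.60 kb apart), *Ccl9* and *Ccl6* (9.24 kb) and *Ccl3* and *Ccl4* (13.2 kb). The MCP genes and *Ccl4* are on the plus strand and the others on the minus strand, and no exon of a member overlapped an exon of another annotated gene.

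The table of RefSeq promoters (GRCm38.p6) used here held 5 of the 9 members, *Ccl12*, *Ccl9*, *Ccl6*, *Ccl3* and *Heatr9*, and did not hold *Ccl2*, *Ccl7*, *Ccl4* and *Ccl5*.
The 250 bases before the RefSeq start are shown for *Ccl9*, the member with the lowest level relative to wild type after SHP099, for *Ccl3*, the member that differed least from wild type in both comparisons, for *Ccl12* of the MCP cluster, and for *Heatr9*, so that the flanks of members with different responses can be read side by side.
Capitals mark matches on either strand to AP-1 (TGANTCA), the PU.1 core (GAGGAA), the ISRE core (GAAANNGAA) and the NF-*κ*B consensus.
Each sequence is given in the direction of its gene, AP-1 reads the same on both strands, and searched motifs overlap in *Ccl3* alone.
*Ccl9* (chr11:83578637-83578886, minus strand): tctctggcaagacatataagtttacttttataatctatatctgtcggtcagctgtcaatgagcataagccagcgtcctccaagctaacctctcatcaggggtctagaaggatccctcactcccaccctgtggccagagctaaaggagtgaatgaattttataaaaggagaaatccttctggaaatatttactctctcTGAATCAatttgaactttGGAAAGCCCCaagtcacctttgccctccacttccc
*Ccl3* (chr11:83649379-83649628, minus strand): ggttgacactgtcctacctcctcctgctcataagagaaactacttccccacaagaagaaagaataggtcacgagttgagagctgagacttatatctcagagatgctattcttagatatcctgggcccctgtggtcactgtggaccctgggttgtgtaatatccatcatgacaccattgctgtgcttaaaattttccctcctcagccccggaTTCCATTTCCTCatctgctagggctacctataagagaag
*Ccl12* (chr11:82101595-82101844, plus strand): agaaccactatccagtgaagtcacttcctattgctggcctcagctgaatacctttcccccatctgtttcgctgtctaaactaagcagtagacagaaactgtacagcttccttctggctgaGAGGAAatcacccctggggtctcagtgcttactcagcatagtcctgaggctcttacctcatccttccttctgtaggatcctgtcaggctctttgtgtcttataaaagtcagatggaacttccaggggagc
*Heatr9* (chr11:83522100-83522349, minus strand): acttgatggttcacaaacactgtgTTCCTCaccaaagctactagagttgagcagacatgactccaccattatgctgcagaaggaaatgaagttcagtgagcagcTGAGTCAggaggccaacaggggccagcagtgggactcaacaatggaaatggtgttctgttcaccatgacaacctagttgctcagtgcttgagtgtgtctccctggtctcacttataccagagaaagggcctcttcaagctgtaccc
In *Ccl9* the capitals are an AP-1 match that ended 47 bases before the start and, nearer to it, an NF-*κ*B match on the opposite strand that ended 26 bases before the start.
In *Ccl3* an ISRE core match and a PU.1 match, both on the opposite strand, overlap and run together into a single stretch of 12 bases.
*Ccl12* held a PU.1 match alone, *Heatr9* a PU.1 match on the opposite strand and an AP-1 match, and the same window of *Ccl6* held none of these letters.
Of the 32851 windows of this length in the RefSeq table, 6.75% held AP-1, 23.3% PU.1, 7.13% the ISRE core and 7.25% the NF-*κ*B consensus, and a match describes the letters only.

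Read counts were recovered from FPKM and transcript lengths, and the depth came to 39843105 to 50981200 reads per library. Of the 9 members, 7 averaged 1 FPKM or more across the 9 libraries and were tested with the 11450 genes that passed this filter. These 7 passed in each group as well, with no library below 25.5 FPKM (*Ccl7* in SHP099 replicate 2). *Ccl12* and *Heatr9* were under the filter and are given by their values. M-*Shp2*-/- replicate 3 stood apart from its group, with a root mean square deviation of 0.37 from the group mean on the log2(FPKM + 1) scale over the genes tested, against 0.16 to 0.32 in the other 8 libraries. Calls and directions that change without it are given with and without it.

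The targeted gene was examined first. The FPKM of *Ptpn11*, which encodes SHP2, was 45.8, 44.0 and 40.0 in the wild-type libraries, 18.6, 17.8 and 18.9 in the M-*Shp2*-/- libraries and 43.0, 42.1 and 39.6 in the SHP099 libraries. All 3 M-*Shp2*-/- libraries thus lay under all others, as their label says, while the libraries with the inhibitor overlapped the wild-type libraries. In bulk RNA, fewer cells that express a gene and less RNA per cell cannot be told apart, which holds for each gene below.

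*Ccl2*, the prototype monocyte chemoattractant (MCP-1), was the most abundant gene of its cluster (ENSMUSG00000035385). Its FPKM was 1128, 840.1 and 1085 in wild-type, 342, 302 and 444 in M-*Shp2*-/- and 262, 128 and 211 in SHP099-treated macrophages. The 3 groups did not overlap, with wild type highest and SHP099 lowest, and the mean was 35.6% of wild type in M-*Shp2*-/- and 19.7% with SHP099. *Ccl7* (MCP-3, ENSMUSG00000035373), which attracts monocytes and eosinophils, had an FPKM of 313, 312 and 375 in wild-type, 75.1, 53.3 and 183 in M-*Shp2*-/- and 62.3, 25.5 and 46.5 in SHP099-treated macrophages. The wild-type libraries again lay above all others, whereas the lowest M-*Shp2*-/- library lay under the highest SHP099 library. Relative to *Ccl2* in the same library, *Ccl7* stood at 27.8 to 37.2% in wild type, 17.7 to 41.3% in M-*Shp2*-/- and 19.9 to 23.8% with SHP099, with replicate 3 at the upper end of the M-*Shp2*-/- range. *Ccl12* (MCP-5, ENSMUSG00000035352), a rodent ligand of CCR2, was near the limit of detection. Its FPKM was 1.42, 1.08 and 2.40 in wild-type, 0.455, 0.286 and 0.603 in M-*Shp2*-/- and 0.179, 0 and 0.269 in SHP099-treated macrophages. The reads behind these values were 32, 28 and 52 in wild type, 10, 6 and 14 in M-*Shp2*-/- and 4, 0 and 6 with SHP099. All wild-type libraries lay above the others, whereas M-*Shp2*-/- replicate 2 and SHP099 replicate 3 had 6 reads each and differed in FPKM through depth alone. In SHP099 replicate 2 the gene was listed at 0, where 3 reads, the smallest number taken as detected, correspond to an FPKM of 0.148 (counting error only). The plots of FPKM by library show these values and those of the MIP cluster.

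**Figure D1:**
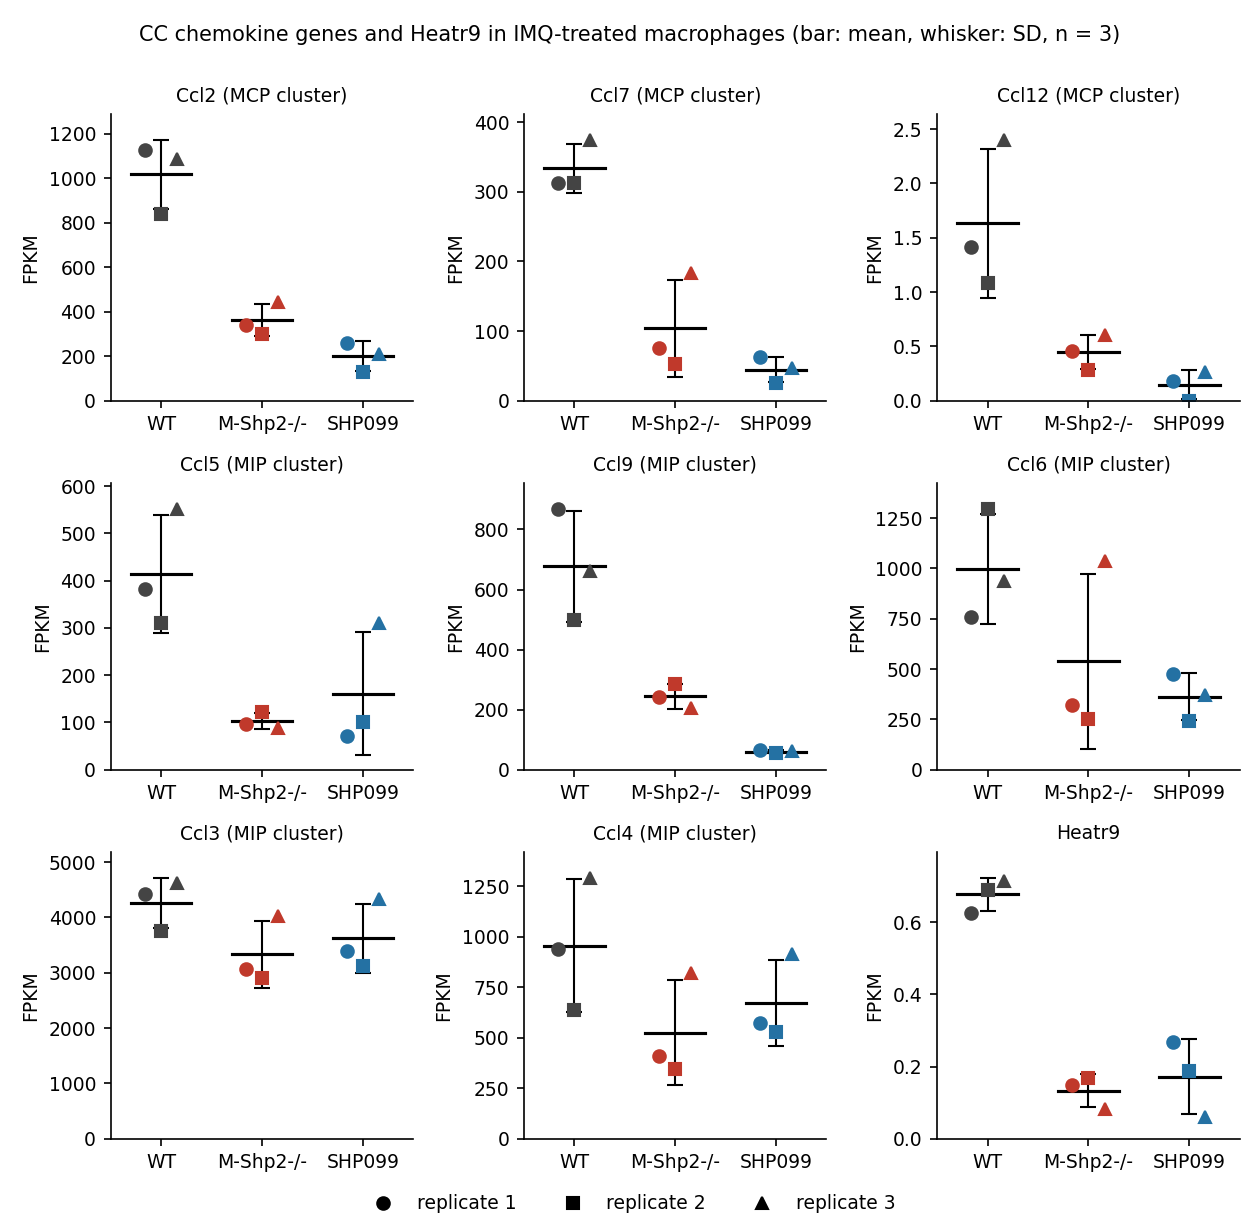
FPKM (vertical axes, from 0) of the 9 genes in each library of wild-type (WT), M-*Shp2*-/- and SHP099-treated macrophages after IMQ (horizontal axes). Symbols stand for replicates, bars for means and whiskers for the SD (n = 3). *Ccl9* fell to between 54.5 and 66.0 with SHP099, whereas *Ccl3* overlapped between all groups.

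In the MIP cluster, *Ccl9* (MIP-1γ, ENSMUSG00000019122), a rodent ligand of CCR1, had an FPKM of 869, 499.7 and 662 in wild-type, 242, 286 and 205 in M-*Shp2*-/- and 66.0, 54.5 and 61.1 in SHP099-treated macrophages. The groups did not overlap, and the SHP099 libraries were close to each other, with a mean of 8.94% of wild type, against 36.1% in M-*Shp2*-/-. *Ccl6* (ENSMUSG00000018927), its neighbour and likewise a rodent ligand of CCR1, had an FPKM of 758, 1297 and 939 in wild-type, 324, 254 and 1038 in M-*Shp2*-/- and 474, 241 and 373 in SHP099-treated macrophages. All SHP099 libraries lay under the wild-type libraries, but M-*Shp2*-/- replicate 3 lay among the wild-type libraries while M-*Shp2*-/- replicates 1 and 2 were under all of them. As a result *Ccl9* stood at 38.5 to 115% of *Ccl6* in wild type, 19.8 to 113% in M-*Shp2*-/- and 13.9 to 22.6% with SHP099. *Ccl5* (RANTES, ENSMUSG00000035042), which attracts T cells, had an FPKM of 382, 309.7 and 552 in wild-type, 96.9, 122 and 89.1 in M-*Shp2*-/- and 72.3, 101 and 310.02 in SHP099-treated macrophages. The M-*Shp2*-/- libraries were all under the wild-type libraries, whereas SHP099 replicate 3 reached the lowest wild-type library and SHP099 replicates 1 and 2 were as low as M-*Shp2*-/-.

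*Ccl3* (MIP-1α, ENSMUSG00000000982), which recruits cells with CCR1, was the most abundant of the 9 genes. Its FPKM was 4415, 3761 and 4625 in wild-type, 3071, 2909.6 and 4023 in M-*Shp2*-/- and 3399, 3131 and 4331 in SHP099-treated macrophages, and it was number 16 of all genes by mean FPKM in wild type and number 20 in M-*Shp2*-/- and with SHP099. The groups overlapped, since replicate 3 of M-*Shp2*-/- and of SHP099 lay among the wild-type libraries. *Ccl4* (MIP-1β, ENSMUSG00000018930), which attracts macrophages and T cells, had an FPKM of 938, 636 and 1293 in wild-type, 411, 343 and 822 in M-*Shp2*-/- and 574, 529.7 and 917 in SHP099-treated macrophages. Here too the groups overlapped, and the replicate 3 library was the highest of each group. *Ccl4* amounted to 16.9 to 28.0% of *Ccl3* in wild type, 11.8 to 20.4% in M-*Shp2*-/- and 16.9 to 21.2% with SHP099, so that the ratio of these neighbours overlapped between all groups. *Heatr9* (ENSMUSG00000018925), which encodes a protein with HEAT repeats and no chemokine, had an FPKM of 0.625, 0.690 and 0.715 in wild-type, 0.148, 0.168 and 0.0819 in M-*Shp2*-/- and 0.267, 0.187 and 0.0608 in SHP099-treated macrophages. The reads behind them were 52, 66 and 57 in wild type, 12, 13 and 7 in M-*Shp2*-/- and 22, 14 and 5 with SHP099, and all wild-type libraries lay above all others.

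In wild-type macrophages the order of levels (mean FPKM) was *Ccl3*, *Ccl2*, *Ccl6*, *Ccl4*, *Ccl9*, *Ccl5*, *Ccl7*, *Ccl12* and *Heatr9*. *Ccl3* stood apart at 4267 ± 451 (SD, n = 3), the neighbours from *Ccl2* to *Ccl7* overlapped pairwise, from 1018 ± 155 to 334 ± 35.8, and *Ccl12* (1.63 ± 0.687) and *Heatr9* (0.677 ± 0.0464) were each separate. In M-*Shp2*-/- macrophages *Ccl6* and *Ccl4* came before *Ccl2*, and the neighbours that overlapped were *Ccl6* (539 ± 434) with *Ccl4* (526 ± 259), *Ccl4* with *Ccl2* (363 ± 73.1), and *Ccl7* (104 ± 69.7) with *Ccl5* (103 ± 17.3), whereas *Ccl3* (3334 ± 602), *Ccl9* (244 ± 40.4), *Ccl12* (0.448 ± 0.159) and *Heatr9* (0.133 ± 0.0453) did not overlap the gene before or after them. With SHP099 the order was *Ccl3* (3620.2 ± 630.2), *Ccl4* (674 ± 212), *Ccl6* (363 ± 117), *Ccl2* (200.4 ± 67.2), *Ccl5* (161 ± 129.7), *Ccl9* (60.5 ± 5.80), *Ccl7* (44.8 ± 18.4), *Heatr9* (0.172 ± 0.104) and *Ccl12* (0.149 ± 0.137). *Ccl3*, *Ccl4* and *Ccl6* were then separate from each other, *Ccl6* overlapped *Ccl2* and *Ccl2* overlapped *Ccl5*, *Ccl9* overlapped *Ccl7* but not *Ccl5*, and *Heatr9* overlapped *Ccl12*. Together the 9 genes held 1.28, 1.12 and 1.38% of the summed FPKM of the wild-type libraries, 0.665, 0.619 and 1.00% in M-*Shp2*-/- and 0.721, 0.610 and 0.910% with SHP099.

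The comparison of M-*Shp2*-/- with wild-type macrophages asked what loss of SHP2 in myeloid cells changes after IMQ. All 7 tested members were lower in M-*Shp2*-/- macrophages, from -0.37 (*Ccl3*) to -1.97 (*Ccl5*) in log2 fold change, and their median was -1.44, against 0.15 over all genes tested. Fold changes are differences of mean log2(FPKM + 1) and understate those of low genes. In *Ccl2*, *Ccl7*, *Ccl5* and *Ccl9*, 4 of the 7, all M-*Shp2*-/- libraries lay under all wild-type libraries, as in 3.07% of all genes tested, and 0 of the 7 lay above, as in 16.0%. In log2 fold change, *Ccl5* had -1.97 (95% confidence interval -2.52 to -1.43, adjusted p = 0.0737 from limma) and *Ccl2* -1.49 (-1.92 to -1.06, adjusted p = 0.0846). *Ccl9* had -1.44 (-1.97 to -0.92, adjusted p = 0.192 from limma) and *Ccl7* -1.87 (-2.87 to -0.87, adjusted p = 0.388). For *Ccl6*, *Ccl4* and *Ccl3* the log2 fold changes were -1.14 (-2.39 to 0.10), -0.91 (-1.82 to 0.0048) and -0.37 (-0.76 to 0.030), and each interval included 0. Over all alternatives the fold change ranged from -1.76 to -0.75 for *Ccl6*, -1.29 to -0.66 for *Ccl4* and -0.54 to -0.17 for *Ccl3*. None of these genes passed 0.05 by the adjusted p in any of them. With the adjusted p of limma held to 0.05, 0 of the 7 fell (0.0873% of all genes) and 0 rose (0%), and limma voom gave 0 as well, although 4 of the 7 and 1204 of the 11450 genes tested had an unadjusted limma p under 0.05. A gene was called where it met the thresholds of the study's methods, 0.005 for the adjusted p and 1 for the log2 fold change in either direction. The study applied them to DESeq on read counts, whereas here they were applied to limma on log2(FPKM + 1). At these thresholds 0 of the 7 were called, against 0.00873% of all genes tested. Without M-*Shp2*-/- replicate 3, 1 of the 7 fell, *Ccl7*, whose log2 fold change was then -2.37 (limma, adjusted p = 0.0343, and 0.0343 to 0.890 over all alternatives), and *Ccl6* moved to -1.76. In that fit 8 of the 11450 genes tested passed 0.05 by the adjusted p, counted in either direction. Leaving out M-*Shp2*-/- replicate 2 instead moved *Ccl6* to -0.75.

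The comparison of SHP099-treated with wild-type macrophages asked what blocking the phosphatase changes while its gene is intact. *Ccl9*, *Ccl7*, *Ccl2* and *Ccl6* fell, 4 of the 7 tested members, against 2.41% of all genes tested, and 0 rose, against 4.55%. The log2 fold change was -3.43 for *Ccl9* (-3.89 to -2.97, adjusted p = 0.00146 from limma), -2.95 for *Ccl7* (-3.64 to -2.27, adjusted p = 0.00759), -2.39 for *Ccl2* (-2.99 to -1.78, adjusted p = 0.00846) and -1.48 for *Ccl6* (-2.14 to -0.81, adjusted p = 0.0316). These same 4 genes had SHP099 libraries that all lay under the wild-type libraries, as in 6.77% of all genes tested, and 0 of the 7 lay above, as in 27.9%. *Ccl9* alone was called at the thresholds of the study's methods, 1 of the 7 against 0.166% of all genes. The log2 fold change of *Ccl5*, -1.61 (-2.81 to -0.40, limma, adjusted p = 0.103), became -2.22 without SHP099 replicate 3 (adjusted p = 0.0389, and 0.0389 to 0.313 over all alternatives). *Ccl4* and *Ccl3* had log2 fold changes of -0.49 (-1.19 to 0.21, adjusted p = 0.342) and -0.25 (-0.61 to 0.12, adjusted p = 0.363), and both intervals included 0. Over all alternatives the fold change ranged from -0.75 to -0.24 for *Ccl4* and from -0.40 to -0.15 for *Ccl3*. Neither gene passed 0.05 by the adjusted p in any of them. The median over the 7 was -1.61, against 0.13 over all genes tested. With 1 library left out in turn, *Ccl2*, *Ccl7* and *Ccl9* stayed past 0.05 each time, whereas *Ccl6* passed only without wild-type replicate 3 (adjusted p = 0.0439) and had 0.0504 and 0.0587 without wild-type replicates 1 and 2, and 0.0601, 0.116 and 0.0897 without SHP099 replicates 1, 2 and 3 (range over all alternatives 0.0264 to 0.129). The call of *Ccl9* at 0.005 ended without any of the SHP099 replicates 1, 2 or 3 (adjusted p = 0.0107, 0.0111 and 0.0124 from limma, and 0.000221 to 0.0371 over all alternatives), and with no filter on low FPKM *Ccl9* alone of the members passed 0.05.

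The last comparison, between M-*Shp2*-/- and SHP099-treated macrophages, set gene loss beside inhibition, without the wild-type libraries that both earlier comparisons share. *Ccl9* averaged 244 ± 40.4 FPKM in M-*Shp2*-/- and 60.5 ± 5.80 in SHP099-treated macrophages (SD, n = 3 per group). The log2 fold change was 1.99 (1.66 to 2.31, adjusted p = 0.0109 from limma). It was the 1 member of 7 that rose, being higher in M-*Shp2*-/-, against 0.0262% of all genes tested, while 0 fell (0.0437%) and 0 were called (0%), and 2 of the 7 and 1437 of the 11450 genes tested had an unadjusted limma p under 0.05. Without M-*Shp2*-/- replicate 3, *Ccl9* was called (adjusted p = 0.00105), as were 159 of all genes tested, and it no longer passed 0.05 without M-*Shp2*-/- replicate 1 (0.115) or without SHP099 replicates 1, 2 or 3 (0.0534, 0.0896 and 0.0996), with a range of 0.00105 to 0.146 over all alternatives. For *Ccl2* the log2 fold change was 0.89 (0.25 to 1.54, limma, adjusted p = 0.326), and for *Ccl7* 1.09 (-0.10 to 2.27, adjusted p = 0.422). *Ccl9* and *Ccl2* had M-*Shp2*-/- libraries that all lay above the SHP099 libraries, 2 of 7 against 7.90% of all genes tested, and 0 of 7 lay under them, against 9.76%. *Ccl6*, *Ccl3*, *Ccl5* and *Ccl4* overlapped, with log2 fold changes of 0.33, -0.12, -0.37 and -0.42 whose intervals all included 0. Without M-*Shp2*-/- replicate 3 the log2 fold change was 0.58 for *Ccl7*, -0.80 for *Ccl4* and -0.26 for *Ccl3*, none of them past 0.05 by the adjusted p, and *Ccl4* moved to -0.17 without M-*Shp2*-/- replicate 2 and to -0.18 without SHP099 replicate 3. Without M-*Shp2*-/- replicate 3 the sign of *Ccl6* turned (-0.28), and without SHP099 replicate 3 those of *Ccl5* (0.25) and *Ccl3* (0.017) did, while that of *Ccl3* also turned with quantile normalization (0.12). The plot of fold changes sets the 3 comparisons side by side, where *Ccl3* and *Ccl4* lie nearest to 0 against wild type and *Ccl9* alone lies clear of it between M-*Shp2*-/- and SHP099 after adjustment.

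**Figure D2:**
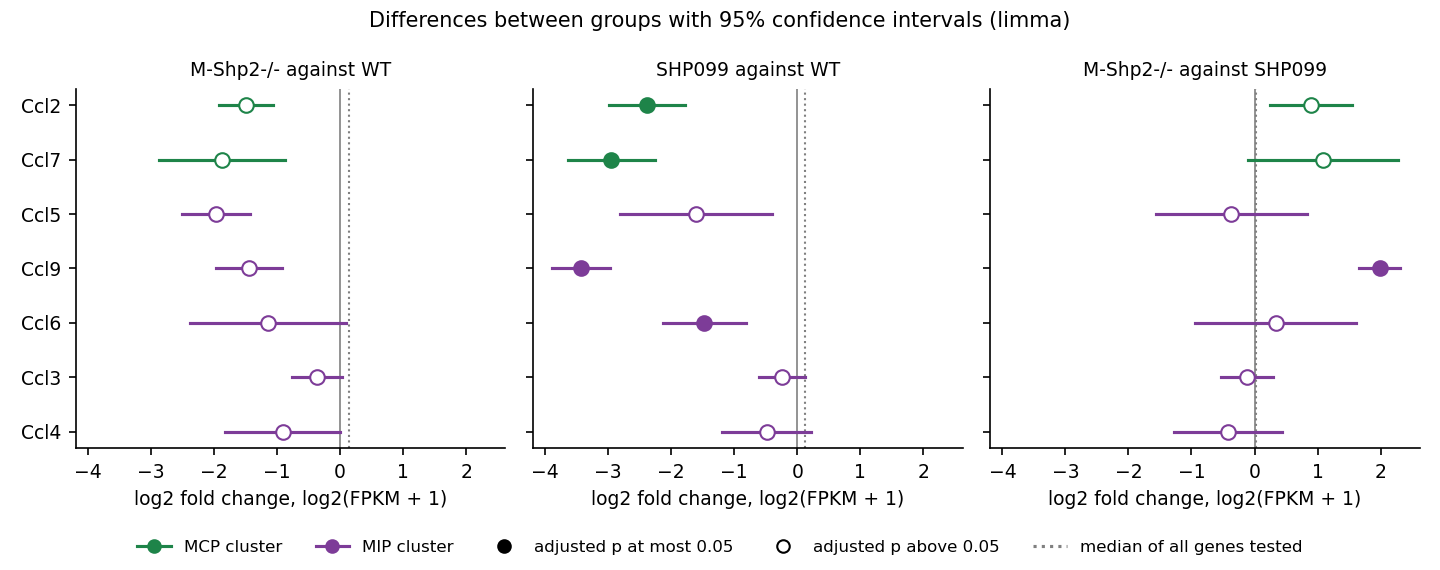
Log2 fold change (horizontal axes, log2(FPKM + 1) scale) of the 7 tested members with its 95% confidence interval in each comparison, for the MCP cluster (green) and the MIP cluster (purple). Filled points passed 0.05 by the adjusted p of limma, and the dotted line is the median of all genes tested, 0.15, 0.13 and 0.017 from left to right.

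*Ccl12* and *Heatr9* had no test in these fits. All 3 wild-type libraries lay above the others in both genes, and an exact permutation test of 3 against 3 libraries gave p = 0.1 (two-sided) for either gene in either comparison with wild type, which is the smallest p it allows. With the filter removed, the adjusted limma p over 26663 genes was 0.548 for *Ccl12* in M-*Shp2*-/- and 0.0985 with SHP099, and 0.107 and 0.0726 for *Heatr9*. The mean of *Heatr9* was 19.6% of wild type in M-*Shp2*-/- and 25.4% with SHP099, beside 24.8% and 38.9% for the adjacent *Ccl5*, whereas *Ccl12* stood at 27.5% and 9.15%, beside 35.6% and 19.7% for *Ccl2*.

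The clusters were then set side by side as a description, with no test over members. The summed FPKM of the MCP cluster was 1353 ± 173 in wild type, 467 ± 143 in M-*Shp2*-/- and 245 ± 85.7 with SHP099 (SD, n = 3), so that 34.5% and 18.1% of the wild-type level remained. The summed FPKM of the MIP cluster was 7312 ± 785, 4746 ± 1246 and 4878 ± 1000.3, and 64.9% and 66.7% remained. M-*Shp2*-/- replicate 3 had the highest sums of its group, since the 3 libraries had 418, 355 and 628 for the MCP cluster and 4144, 3915 and 6178 for the MIP cluster. The MCP sum therefore moved from 19.6, 17.7 and 18.1% of the sum of the MIP cluster and *Heatr9* in the wild-type libraries to 10.1, 9.07 and 10.2% in M-*Shp2*-/- and 7.07, 3.79 and 4.30% with SHP099. The groups did not overlap in this ratio. *Ccl3* weighs heavily in it, with 57.3 to 60.0% of the MIP sum in wild type, 65.1 to 74.3% in M-*Shp2*-/- and 72.3 to 77.2% with SHP099, and so does *Ccl2*, with 72.8 to 78.2%, 70.7 to 84.9% and 80.7 to 83.4% of the MCP sum. With *Ccl3* left out, the MCP sum was 49.0, 42.1 and 42.4% of the rest in wild type, 38.9, 35.3 and 29.1% in M-*Shp2*-/- and 27.3, 16.6 and 15.5% with SHP099, again with no overlap between groups. In the plot of cluster sums the MCP sums of the 3 groups are apart, while the highest M-*Shp2*-/- and SHP099 libraries come close to the lowest wild-type library in the MIP sum.

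**Figure D3:**
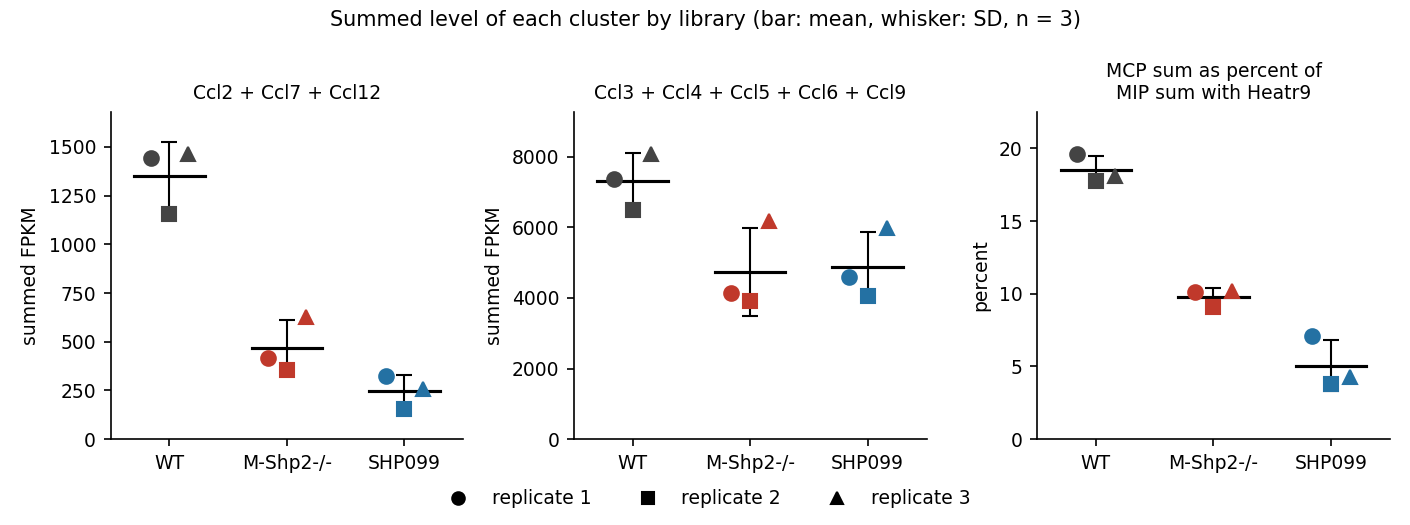
Summed FPKM of the MCP cluster (left) and of the MIP cluster (middle), and the MCP sum as a percentage of the MIP sum with *Heatr9* (right), in each library of the 3 groups on the horizontal axes. Symbols stand for replicates, bars for means and whiskers for the SD (n = 3); the percentage was 17.7 to 19.6 in wild type and 3.79 to 7.07 with SHP099.

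Gene by gene the clusters did not divide along this line. Between M-*Shp2*-/- and wild type, the median log2 fold change was -1.68 over the 2 tested MCP genes and -1.14 over the 5 MIP genes, and the range of the MIP genes, -1.97 to -0.37, included both MCP genes. With SHP099 the medians were -2.67 and -1.48, and *Ccl9* of the MIP cluster lay below both MCP genes. With SHP099, 2 of 2 tested MCP genes and 2 of 5 MIP genes fell, against 2.41% of all genes tested. Of these, *Ccl6* passed 0.05 in only 1 of 6 fits with a library left out. In M-*Shp2*-/- macrophages 0 of 2 and 0 of 5 fell, against 0.0873% of all genes tested. Between M-*Shp2*-/- and SHP099 the medians were 0.99 and -0.12. Median-of-ratios scaling moved the median of all genes tested from 0.15 to -0.012 in M-*Shp2*-/- and from 0.13 to -0.0051 with SHP099, a shift of over 0.1 in each. With this scaling, the MCP medians were -1.86 and -2.82 and the MIP medians -1.32 and -1.63, and all 7 members were lower than wild type in both comparisons under each scaling.

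Libraries of the same group differed along lines that members shared. M-*Shp2*-/- replicate 3 lay above its group mean by 1.24 in *Ccl6*, 1.01 in *Ccl7* and 0.75 in *Ccl4* on the log2(FPKM + 1) scale, while *Ccl9* and *Ccl5* deviated by -0.24 and -0.19 in the same library. SHP099 replicate 3 lay above its group mean by 1.23 in *Ccl5* and 0.49 in *Ccl4*, and SHP099 replicate 2 below it by a deviation of -0.58 in *Ccl2*, -0.70 in *Ccl7* and -0.53 in *Ccl6*. Over the 9 libraries the members with the smallest difference between profiles, each centred on its own mean, were *Ccl3* and *Ccl4* (root mean square difference 0.35), followed by *Ccl2* and *Ccl7* (0.40) and by *Ccl2* and *Ccl9* (0.60), which lie in different clusters. The difference is not scaled, so that members that varied little come out closer. *Ccl3* varied by 0.24 and *Ccl4* by 0.58 around their own means, against 1.03 for *Ccl2* and 1.33 for *Ccl7*. The neighbours *Ccl6* and *Ccl9* differed by 1.13, and the largest difference was 1.38, between *Ccl4* and *Ccl9*.

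The labelled cell type was checked against its markers. The 7 macrophage markers were present in every group, with mean FPKM values of 8539.6, 5004 and 10114 for *Lyz2*, 1377, 1523 and 1250.3 for *Cd68* and 298, 273 and 227 for *Adgre1* in wild-type, M-*Shp2*-/- and SHP099-treated macrophages. Their sum, mostly *Lyz2*, was 9416, 12033 and 9694 in the wild-type libraries, 6890.1, 6879 and 7192 in M-*Shp2*-/- and 11009, 12071 and 12559.6 with SHP099, so that the M-*Shp2*-/- libraries lay under the others in it, and for *Lyz2* against wild type the log2 fold change was -0.76 (limma, adjusted p = 0.388). The other macrophage markers went both ways in M-*Shp2*-/-, from 43.3% of the wild-type mean (*Mertk*) to 142% (*Csf1r*). The sum is thus no measure of the number of macrophages. The M-*Shp2*-/- mice carry *Lyz2*-cre, whose part in the level of *Lyz2* was not tested. *Csf1r* rose with SHP099, the 1 macrophage marker that changed in any comparison, by 1.38 in log2 fold change (limma, adjusted p = 0.0222). The summed FPKM of 5 fibroblast markers (*Col1a1*, the most abundant, *Col1a2*, *Col3a1*, *Dcn* and *Pdgfra*) was 63.8, 302 and 39.7 in the wild-type libraries, 135, 51.4 and 585 in M-*Shp2*-/- and 361, 137 and 101 with SHP099. In each group the library with the highest fibroblast sum was also the one with the highest *Ccl6*. In M-*Shp2*-/- (replicate 3) and with SHP099 (replicate 1) it had the highest *Ccl2* and *Ccl7* of its group as well, whereas in wild type (replicate 2) it had the lowest value of each of the other 6 tested members. The groups overlapped in the fibroblast sum, 0 of its 5 markers had an adjusted or an unadjusted limma p under 0.05 in any comparison, and its part in the levels of *Ccl6*, *Ccl2* and *Ccl7* was not tested. The map of library deviations shows these shifts above the fibroblast sums of the same libraries.

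**Figure D4:**
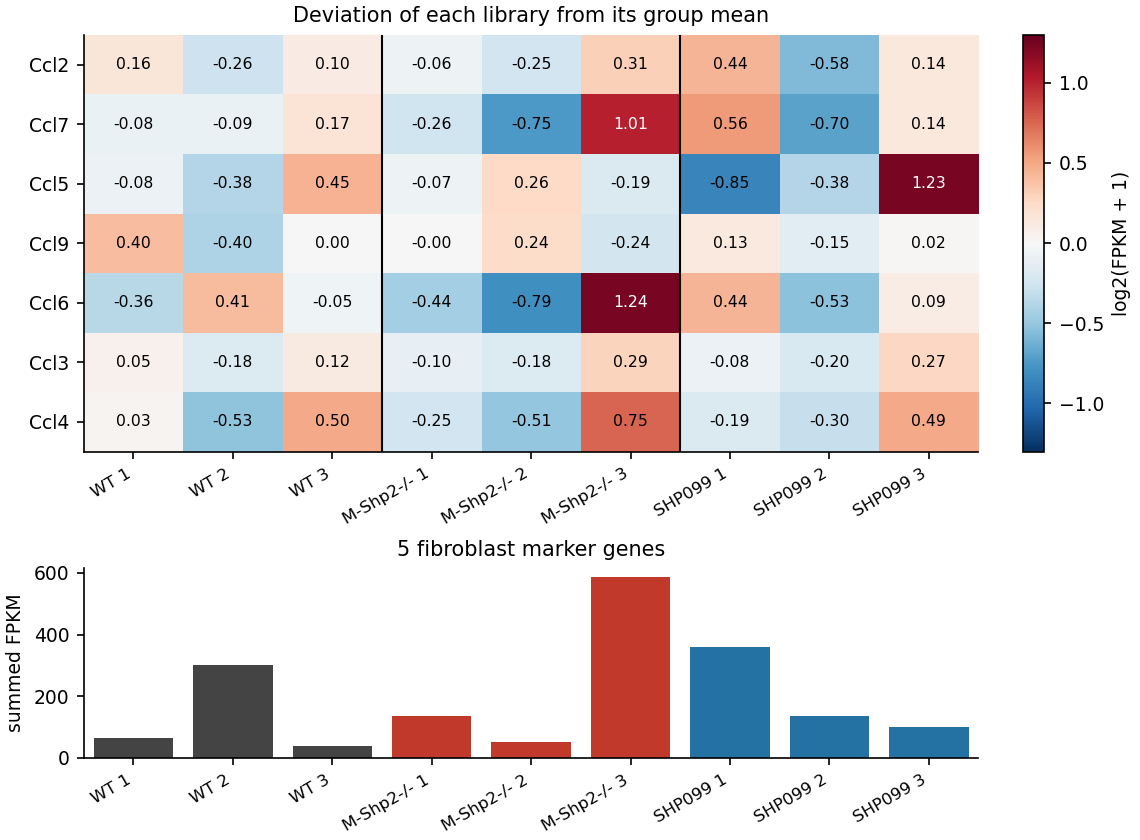
Upper panel: deviation of each library from the mean of its group, in log2(FPKM + 1), for the 7 tested members (rows) and 9 libraries (columns). Lower panel: summed FPKM of 5 fibroblast markers in the same libraries, highest in M-*Shp2*-/- replicate 3 at 585.

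T cells and NK cells are other known sources of *Ccl5*. The 5 T cell markers (*Cd3e*, *Cd3d*, *Cd3g*, *Trac* and *Cd247*, of which *Cd3g* was the most abundant) summed to 0.912, 1.96 and 4.73 FPKM in wild type, 0.509, 0.399 and 2.86 in M-*Shp2*-/- and 6.27, 4.52 and 4.47 with SHP099, and the 4 NK cell markers (*Gzma* the most abundant, *Ncr1*, *Klrb1c* and *Klrk1*) to 0.215, 0.335 and 2.06 in wild type, 0.0533, 0.193 and 0.345 in M-*Shp2*-/- and 0.316, 0.591 and 0.497 with SHP099. The library with the highest *Ccl5*, wild-type replicate 3, also had the highest NK cell sum, whereas SHP099 replicates 1 and 2 had low *Ccl5* with T cell sums near or above its own, and their part in *Ccl5* was not tested. No T cell or NK cell marker averaged 1 FPKM across the libraries. The 4 mast cell markers (*Tpsb2* the most abundant, *Cpa3*, *Mcpt4* and *Fcer1a*, the last at 0 in all libraries) summed to 1.11, 3.03 and 3.56 in wild type, 1.08, 0.229 and 0.820 in M-*Shp2*-/- and 0.299, 0.209 and 0.614 with SHP099, so that the wild-type libraries lay above all others, as they did for *Ccl2*, *Ccl7* and *Ccl9*, and the part of mast cells in these members was not tested. Neutrophils, in which *Lyz2*-cre is active as well, were near absent by *Ly6g* and *Mpo*, with means of 0.0235 and 0.0113 in M-*Shp2*-/- and both at 0 in wild type, and *Retnlg* and *Cxcr2* at most 0.129 in any group mean. The sum of 5 neutrophil markers was nearly all *Camp*, with 3.79, 4.33 and 4.67 in wild type, 5.02, 4.77 and 4.93 in M-*Shp2*-/- and 2.92, 4.17 and 4.53 with SHP099. The other lists were low throughout, with summed means in wild-type, M-*Shp2*-/- and SHP099-treated macrophages of 4.98, 5.70 and 5.31 for 3 markers of large resident macrophages, 2.24, 3.08 and 2.86 for 4 of mesothelium, 1.08, 1.48 and 0.709 for 4 of dendritic cells, and at most 0.0785 for 3 of eosinophils, of which *Ear6* was at 0 throughout.

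Other genes between the members were followed to see how far the levels reached along the chromosome. From *Ccl2* to *Ccl1* 3 further genes of the table lay wholly within the region, *Ccl11*, *Ccl8* and *Ccl1*, and *Gm17268*, which reaches in from outside, overlaps *Ccl2* on the opposite strand with no shared exon bases and was under the filter. *Ccl8*, a further CC chemokine, had an FPKM of 8.38, 22.9 and 20.7 in wild-type, 3.58, 4.66 and 9.53 in M-*Shp2*-/- and 1.16, 1.38 and 9.51 in SHP099-treated macrophages. Its groups overlapped, with log2 fold changes of -1.38 (adjusted p = 0.455 from limma) and -2.17 (adjusted p = 0.0896). *Ccl11* (eotaxin) and *Ccl1* were at means of at most 0.0604 and 0.416 FPKM in any group, although *Ccl11* lies between *Ccl7* and *Ccl12*. From *Heatr9* to *Ccl4* there were 3 further genes, *Gm23247*, *E230016K23Rik* and *Rpl9-ps1*, and none averaged 1 FPKM, the highest being *E230016K23Rik* at 0.489 across the libraries, a gene that overlaps *Ccl6* on the opposite strand with no shared exon bases. The map of both regions shows the abundant members beside genes at the lower end of the scale.

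**Figure D5:**
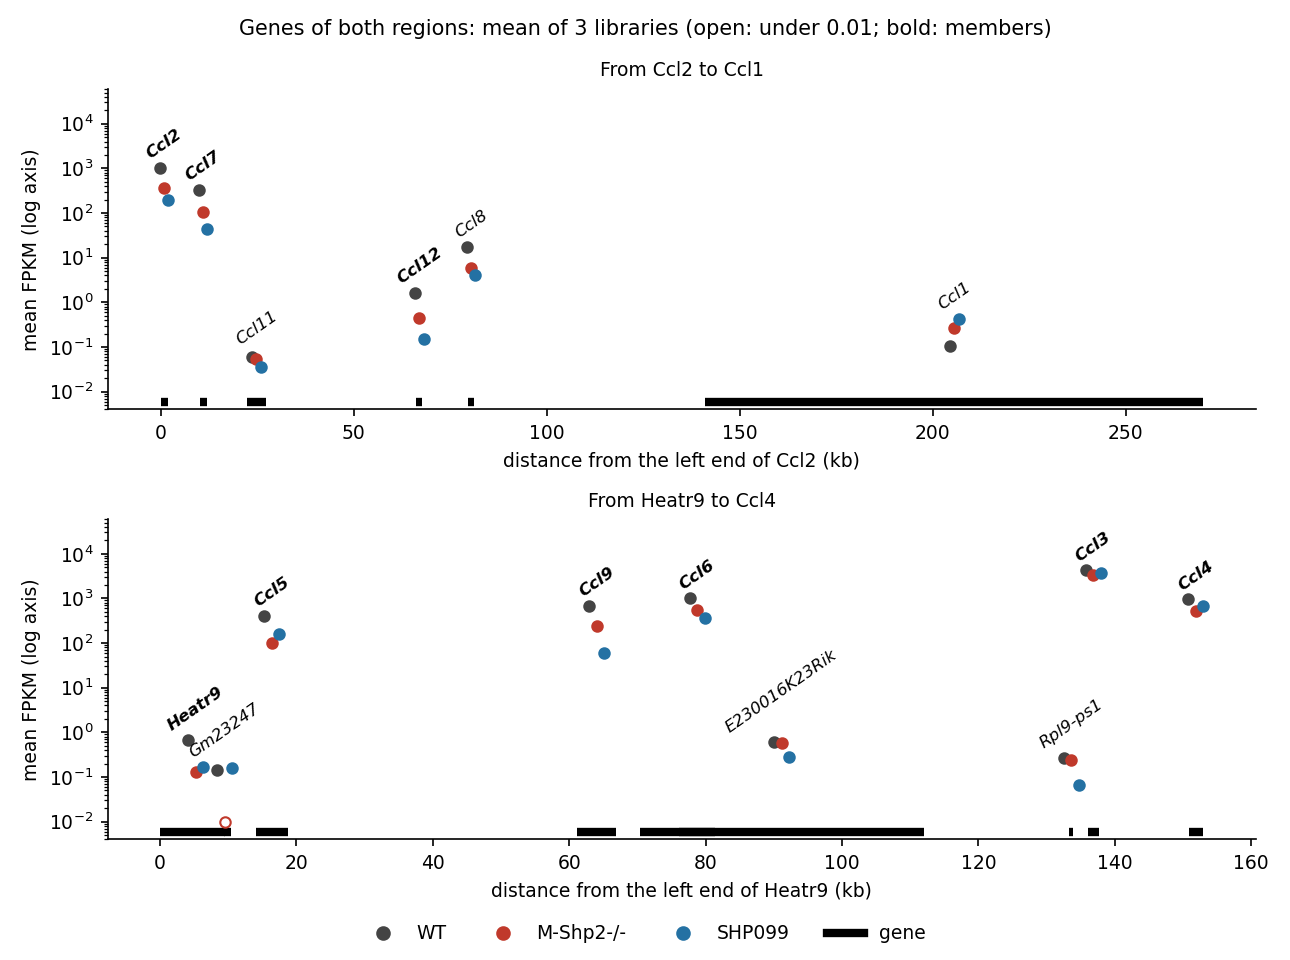
Mean FPKM of 3 libraries (vertical axes, log scale) of each gene in the MCP region (upper panel) and the MIP region (lower panel), drawn at its distance in kb from the left end of *Ccl2* or *Heatr9*. Black bars are gene bodies, colours are groups, bold names are members, and *Ccl11* at 0.0604 in wild type stands between *Ccl7* and *Ccl12*.

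Of the 13 CC chemokine genes outside the 8, 5 were tested and 0 changed in any comparison by limma, where 1 in M-*Shp2*-/-, 3 with SHP099 and 2 between M-*Shp2*-/- and SHP099 had an unadjusted p under 0.05, as had 1204, 3061 and 1437 of the 11450 genes tested. Their median log2 fold change was -0.043 in M-*Shp2*-/-, -1.47 with SHP099 and 0.78 between M-*Shp2*-/- and SHP099. *Ccl22*, a ligand of CCR4 made by macrophages and dendritic cells, had 23.0, 6.95 and 6.95 FPKM in wild-type, 24.9, 16.1 and 5.46 in M-*Shp2*-/- and 2.79, 2.27 and 3.11 in SHP099-treated macrophages. The SHP099 libraries lay under all others, but the log2 fold change against wild type, -1.63, had an adjusted p of 0.0608 from limma, and in M-*Shp2*-/- it was 0.31 (adjusted p = 0.814). *Ccl17*, the other ligand of CCR4, had log2 fold changes of -0.31 in M-*Shp2*-/- and -1.47 with SHP099 (adjusted p = 0.785 and 0.0658). *Ccl25* and *Ccl27a* stayed within a mean FPKM of 1.25 to 3.30. *Ccl24*, just under the filter over the 9 libraries, averaged 1.20 ± 0.159 in wild type and 1.19 ± 0.888 in M-*Shp2*-/-, and with SHP099 it had 0.319, 0.108 and 0.172. The other 7 of the 13 had a mean of at most 0.416 FPKM in any group, and *Ccl19* and *Ccl21a* were listed at 0 in all 9 libraries.

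Receptors of CC chemokines were followed in the same libraries. *Ccr1*, the receptor shared by *Ccl3*, *Ccl5*, *Ccl6* and *Ccl9*, had 14.3, 21.6 and 15.2 FPKM in wild-type, 12.0, 11.2 and 8.28 in M-*Shp2*-/- and 5.79, 2.76 and 4.36 in SHP099-treated macrophages. The 3 groups did not overlap, and the log2 fold change was -1.79 with SHP099 (adjusted p = 0.0151 from limma) and -0.64 in M-*Shp2*-/- (adjusted p = 0.455). *Ccr7*, which guides cells to lymph nodes, fell with SHP099 (log2 fold change -1.52, adjusted p = 0.0192 from limma) and had 0.044 in M-*Shp2*-/- (adjusted p = 0.951). *Ccrl2*, a receptor that binds chemerin without signalling, was abundant, with means of 809 ± 355, 659.7 ± 338 and 976 ± 81.6 FPKM, and its groups overlapped. *Ccr2*, the receptor of the MCP cluster, was low, with 0.354 ± 0.180 FPKM in wild type and 0.192, 0.161 and 0.575 in M-*Shp2*-/-, and with 1.56, 0.671 and 1.03 with SHP099, where all libraries lay above all others.

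Genes with the most similar profile over the 9 libraries were sought among the 6619 genes that averaged 10 FPKM or more, by the root mean square difference of log2(FPKM + 1) centred on each gene's mean. For *Ccl2* they were *Lif* (0.35), *Adora2b* (0.38) and *Ptgs2* (0.39), where *Ccl2* itself varied by 1.03 around its mean. For *Ccl7* they were *Il1a* (0.51), *Lif* (0.54) and *Il1rn* (0.56), and for *Ccl9* *Il1rn* (0.39), *Il1a* (0.53) and *Adora2b* (0.59), against 1.33 for *Ccl7* and 1.42 for *Ccl9* around their own means. *Lif* encodes a cytokine of the IL-6 family, *Adora2b* an adenosine receptor, *Ptgs2* the prostaglandin synthase COX-2, *Il1a* the cytokine IL-1α and *Il1rn* the antagonist of the IL-1 receptor. The mean FPKM of *Lif* was 84.8, 39.2 and 19.9 and that of *Il1rn* 411, 141 and 53.6 in wild-type, M-*Shp2*-/- and SHP099-treated macrophages, an order of groups that follows from the choice by profile. *Ccl3* was followed most closely by *Lcp2* (0.064), *Csf3r* (0.099) and *Tor1aip1* (0.11), where *Ccl3* itself varied by 0.24. *Ccl4* was followed by *Cxcl1* (0.22), *Ifi211* (0.23) and *Zfp36* (0.25), *Ccl5* by *Ifi27l2a* (0.44), *Il27* (0.47) and *Ptgs2* (0.51), and *Ccl6* by *Hilpda* (0.31), *Osm* (0.34) and *Upp1* (0.36). Here *Lcp2* encodes an adaptor of immune receptors, *Csf3r* the G-CSF receptor, *Cxcl1* a CXC chemokine for neutrophils, *Zfp36* an mRNA decay factor, *Il27* a subunit of IL-27 and *Osm* oncostatin M.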

How the data were processed

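Per the submitters' notes and the study's methods, the paired-end reads passed through CASAVA 1.8, HISAT2 2.0.4 for alignment and HTSeq 0.9.1 for counts per gene, and the authors deposited FPKM, in 1 column for each of the 9 libraries. The libraries were made with a poly-A kit that does not mark strand, and the tool that computed FPKM, the strand setting, the annotation and the build are not given in the sources used here. In the authors' table of assembled genes, 91.8% of 5235 genes had the start and end of GENCODE M21 (GRCm38), which was used for names, positions and mean transcript lengths. Values of up to 50 reads were whole (within 0.05) in 96.3% to 96.7% of cases, against 10% by chance. The floor at 3 reads covers counting error only, and the confidence intervals come from the spread between libraries.

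Groups were compared on log2(FPKM + 1) with limma 3.58.1 (R 4.3.3; lmFit, eBayes with trend), each comparison on its 6 libraries, for genes that averaged 1 FPKM or more over the 9 libraries, with Benjamini-Hochberg adjustment over all of them. The procedure was tested on simulated data. The members and gene lists were chosen with earlier results of these data known, so no test over lists was made. Named genes were the members, *Ptpn11*, the other genes annotated within both regions, fixed lists of other CC chemokines and cell type markers, some of their receptors, and the 3 genes nearest in profile to each tested member. Alternatives were pseudocounts of 0.1 and 5, no filter and a mean FPKM of at least 5, equal-sum, median-of-ratios and quantile scaling, no trend, all 9 libraries in 1 fit, the replicate number as a block, limma voom on recovered reads, and each library left out.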

Additional observations from a re-analysis of the deposited data

How the results depend on the processing

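In M-*Shp2*-/- against wild type, all 7 tested members kept their direction under all 17 alternatives, the number called stayed at 0, and the number past an adjusted p of at most 0.05 was 0 except without M-*Shp2*-/- replicate 3, so that it ranged from 0 to 1 with libraries left out in turn. In SHP099 against wild type the direction was kept as well, and the 1 called member became 0 with no filter on low FPKM, where 26663 genes were tested, and 2 (*Ccl2* and *Ccl9*) with all 9 libraries in 1 fit, with a range of 0 to 1 over left-out libraries. The 4 members past 0.05 became 1 (*Ccl9*) with no filter and 3 with all 9 libraries in 1 fit, where *Ccl6* did not pass (adjusted p = 0.103, range over all alternatives 0.0264 to 0.129), and were 3 to 4 with libraries left out. In M-*Shp2*-/- against SHP099, the number called was 0 and ranged from 0 to 1 over left-out libraries, and the 1 member past 0.05 became 0 with no filter and ranged from 0 to 1 over left-out libraries. The log2 fold change of *Ccl3* in that comparison turned from -0.12 to 0.12 with quantile normalization and to 0.017 without SHP099 replicate 3, that of *Ccl5* from -0.37 to 0.25 without SHP099 replicate 3, and that of *Ccl6* from 0.33 to -0.28 without M-*Shp2*-/- replicate 3, and the cause was not tested. Over left-out libraries these values ranged from -0.26 to 0.017 for *Ccl3*, -0.79 to 0.25 for *Ccl5* and -0.28 to 0.73 for *Ccl6*.

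Libraries with the same replicate number did not deviate together throughout: the correlation of their deviations from the group means across 11450 genes was -0.43 to 0.49 between M-*Shp2*-/- and wild type, -0.090 to 0.45 between SHP099 and wild type, and -0.047 to 0.18 between M-*Shp2*-/- and SHP099, and not every library correlated best with its own number. Whether libraries with the same number share a preparation is not given in the sources used here, and these correlations cannot tell. When the number was fitted as a block, the members called with SHP099 went from 1 to 0 and those past 0.05 between M-*Shp2*-/- and SHP099 from 1 to 0, while with SHP099 *Ccl5* passed 0.05 (adjusted p = 0.0485 from limma, range over all alternatives 0.0389 to 0.313) and *Ccl6* did not (adjusted p = 0.0668, range 0.0264 to 0.129), which left 4 past it. The block changed no other count of members. Depth limited *Ccl12* and *Heatr9* alone among the members, with at most 52 and 66 reads per library.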
